A study of Homo sapiens with 2 samples.

Results

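The human mitochondrial genome carries 37 genes, and each of them was found in the deposited RNA-seq table of Huh7 cells by its symbol, which starts with MT-. They comprise 13 mRNA genes, 2 rRNA genes and 22 tRNA genes, out of 61541 genes in the table. Huh7 is an established human hepatocellular carcinoma cell line. Huh7 cells that received a negative control siRNA (Huh7-NC) were compared with Huh7 cells that received an siRNA against BRF2 (Huh7-si), to learn which mRNAs change after BRF2 knockdown. The series text says that the cells were infected with the siRNAs, whereas the study's methods describe transfection. Dose and time after transfection are not given in the sources used here. There was 1 library per condition, so no difference has a replicate check, and every test on reads compares these 2 libraries and not the conditions.

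The mitochondrial genome is a small circle that is transcribed from both strands by its own polymerase, POLRMT, into long precursors. Most mRNAs and both rRNAs lie on the same strand, and tRNA genes stand between many of them. The tRNAs are cut out, which frees most mRNAs and the rRNAs, and most mRNAs receive short poly(A) tails. BRF2 is a subunit of an initiation factor of nuclear RNA polymerase III, used at a small set of promoters such as that of U6 RNA. Mitochondrial tRNAs are transcribed by POLRMT, not by RNA polymerase III. The 13 proteins are subunits of respiratory complexes I, III, IV and V, and the rRNAs (12S, MT-RNR1, and 16S, MT-RNR2) build the mitochondrial ribosome. Hepatocytes are rich in mitochondria.

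The libraries held 22852648 (Huh7-NC) and 22089016 (Huh7-si) reads on genes, as estimated counts that need not be whole. The siRNA target BRF2 had 1281 reads with the control siRNA and 364 with si-BRF2 (log2 fold change -1.77, 95% interval -1.94 to -1.60). CPM is a gene's reads divided by all reads on genes and multiplied by 1e6, and fold changes are ratios of CPM, Huh7-si over Huh7-NC. Intervals are 95% exact Clopper-Pearson intervals and cover counting error only. A gene was called when its fold was at least 2 and its two-sided exact binomial p was under 0.05. The hepatoma markers AFP, ALB, APOA1, APOB, TTR, SERPINA1, GPC3, FGB, KRT8 and KRT18 had reads in both libraries, with summed levels of 21524 and 21222 CPM. Single markers differed more than the sum, with 4 intervals above 0 and 6 below 0. APOB was called higher (1.04, 1.01 to 1.06), but had 0.81 with TMM scaling. APOA1 was the lowest at -0.83, and with TMM scaling it had -1.05 and was called lower. Among white blood cell and endothelial markers, CD3E was at 0 in both libraries, PTPRC and VWF had at most 5 reads, PECAM1 had 60 and 63, and CD68 had 235 and 244 reads.

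The open reading frames of some mitochondrial genes overlap, and reads in a shared stretch fit both genes. Positions are those of GENCODE release 29 (GRCh38), in which the lengths of all 37 genes equal those of the deposited table. MT-ND4L (chrM:10470-10766) and MT-ND4 (chrM:10760-12137) share 7 bases, and MT-ATP8 (chrM:8366-8572) and MT-ATP6 (chrM:8527-9207) share 46, all on the plus strand. The sequences below are shown because the reads of the short gene of each pair cannot be fully separated from those of its neighbour. They come from the GENCODE transcripts, and capitals mark the bases that both genes of a pair hold.
End of MT-ND4L (chrM:10737-10766): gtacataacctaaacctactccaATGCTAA
Start of MT-ND4 (chrM:10760-10789): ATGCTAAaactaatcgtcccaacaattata
MT-ATP8 at the start of MT-ATP6 (chrM:8518-8547): agaaccaaaATGAACGAAAATCTGTTCGCT
End of MT-ATP8 (chrM:8543-8572): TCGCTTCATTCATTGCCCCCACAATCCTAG

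Mitochondrial genes took a larger share of the reads in Huh7-si. They held 875255 reads, or 3.83% of all reads on genes (3.82 to 3.84), in Huh7-NC and 1168474 reads, or 5.29% (5.28 to 5.30), in Huh7-si. The ratio of these shares was 1.38-fold (log2 fold change 0.47, interval 0.46 to 0.47), and 0.24 on the log2 scale when the libraries were scaled by TMM, which shifts every log2 fold change by -0.22. Of the 20 genes with the most reads in each library, 5 were mitochondrial in Huh7-NC and 9 in Huh7-si. MT-CO1 alone accounted for 35.9% of the gain in mitochondrial CPM, and MT-CO1, MT-ND4, MT-ND5 and MT-RNR2 together for 70.5%. These were the genes with the largest gains and not those with the most reads. MT-CO2 and MT-CO3, with 4506 and 4141 CPM in Huh7-NC, accounted for 6.55% and 6.02% of the gain. MT-ND5 and MT-RNR2 had 1789 and 1944 CPM there. In these whole-culture RNA samples, more mitochondrial RNA per cell cannot be told apart from less RNA of other kinds.

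The classes did not shift equally. The 13 mRNAs held 817585 reads in Huh7-NC against 1070264 in Huh7-si, with a log2 fold change of 0.44 (0.43 to 0.44). The 2 rRNAs held 57488 and 97910 reads, a log2 fold change of 0.82 (0.80 to 0.83). The 22 tRNAs held 182 and 300 reads, a log2 fold change of 0.77 (0.50 to 1.04). The rRNA interval lay above the mRNA interval, whereas that of the tRNAs included the values of the rRNAs. Per base of gene length, rRNA reads stood at 0.319 of the mRNA level in Huh7-NC and at 0.415 in Huh7-si. How far rRNA or tails were selected during library preparation is not given in the sources used here, so the low rRNA level describes these libraries.

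Of the 29 mitochondrial genes with reads, 3 were called higher (MT-ND4L, MT-TN and MT-TF) and 0 lower. Over all 26379 genes with reads, 10.4% were called higher and 1.02% lower, so the share of members called is near the background. With TMM scaling, 6.91% of all genes were called higher and 2.16% lower, and MT-TF was no longer called. At a fold of 1.5, 9 members were called higher and 0 lower, against 17.6% and 2.86% of all genes. Most differences of the mRNAs were smaller than that and pointed the same way. All 13 mRNAs had an interval above 0 with total reads (10 of them with TMM scaling, where MT-ND3 was below 0), as did 28.9% of all genes and 44.5% of the 7455 genes with at least 1000 reads over both libraries. Their median change on the log2 scale was 0.30, against 0.21 over the 17955 genes with 10 or more reads, and the 13 ranged from 0.11 (MT-ND3) to 2.28 (MT-ND4L). With TMM scaling their median was 0.07, against -0.02 over the same genes.

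**Figure D1:**
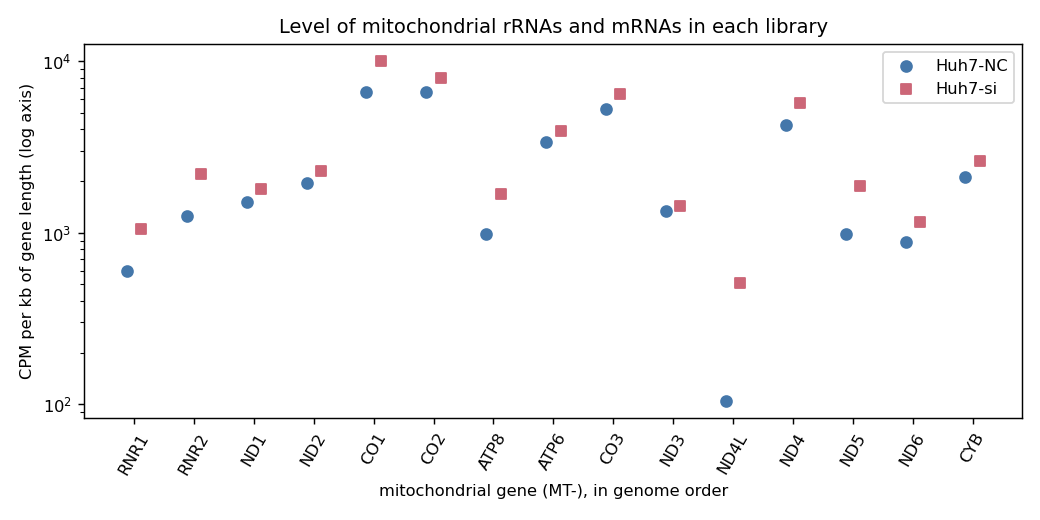
Level of the 2 rRNAs and 13 mRNAs of the mitochondrial genome in each library, in CPM per kb of gene length on a log axis, with genes in genome order (circles Huh7-NC, squares Huh7-si, 1 library each). Every square lies above its circle (with TMM scaling those of MT-ND3 and MT-ATP6 would not), and the widest gap is that of MT-ND4L, from 105 to 508 CPM per kb.

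MT-CO1, MT-CO2 and MT-CO3 encode the catalytic core of complex IV (cytochrome c oxidase), which passes electrons to oxygen. MT-CO1 (ENSG00000198804, chrM:5904-7445, plus strand) had the most reads of all members, 232608 in Huh7-NC and 340469 in Huh7-si, which is 10179 and 15414 CPM. The log2 fold change was 0.60 (0.59 to 0.61), a level 51.4% higher in Huh7-si. MT-CO2 had 4506 and 5463 CPM, and MT-CO3 had 4141 and 5020 CPM. Both stood at 0.28 on the log2 scale (0.27 to 0.29 for MT-CO2 and 0.26 to 0.29 for MT-CO3), 21.2% higher in Huh7-si. The interval of MT-CO1 thus lay apart from those of the other two.

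MT-CYB encodes cytochrome b, the only subunit of complex III that mitochondria make. It had 55176 reads in Huh7-NC against 65630 in Huh7-si, or 2414 and 2971 CPM, and its log2 fold change was 0.30 (0.28 to 0.32).

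The 7 MT-ND genes encode membrane subunits of complex I (NADH dehydrogenase), and they differed most among themselves. MT-ND3 had 460 and 496 CPM, a log2 fold change of 0.11 (0.07 to 0.15), the smallest of the 13 mRNAs, and -0.12 with TMM scaling. MT-ND1 had 1439 and 1729 CPM (log2 fold change 0.26, 0.24 to 0.29), and MT-ND2 had 2019 and 2386 CPM (0.24, 0.22 to 0.26). MT-ND1 and MT-ND2 lay close together and above MT-ND3. MT-ND4 went from 133579 to 173154 reads, or 5845 to 7839 CPM, a log2 fold change of 0.42 (0.41 to 0.43). MT-ND6 had 461 and 609 CPM, a log2 fold change of 0.40 (0.36 to 0.44). MT-ND6 is the only mitochondrial mRNA gene on the minus strand, and its interval included the value of MT-ND4, which lies on the plus strand. MT-ND5 (ENSG00000198786, chrM:12337-14148, plus strand) had 40886 reads in Huh7-NC against 74424 in Huh7-si, which is 1789 and 3369 CPM. The log2 fold change was 0.91 (0.90 to 0.93), just under the fold threshold, while the authors' TPM columns put it past the threshold at 1.09. MT-ND6 and MT-ND5 are convergent neighbours whose genes end at adjacent bases, and the strandedness of the counting is not given in the sources used here.

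MT-ND4L was the only mitochondrial mRNA past the fold threshold. It had 711 reads in Huh7-NC against 3334 in Huh7-si, or 31.1 and 151 CPM, and its level rose 4.85-fold (log2 fold change 2.28, 2.16 to 2.40). Its TPM values were 532 and 2625. MT-ND4L and MT-ND4 are known to be carried by a joint mRNA. Per kb, MT-ND4 had 40.5 times the CPM of MT-ND4L in Huh7-NC and 11.2 times in Huh7-si. Of the reads of the pair, 0.529% were given to MT-ND4L in Huh7-NC (0.491 to 0.570) and 1.89% in Huh7-si (1.83 to 1.95), although it makes up 17.7% of their summed length. Counted as 1 gene, a choice made after seeing the data, the pair had a log2 fold change of 0.44 (0.43 to 0.45), under the threshold.

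MT-ATP6 and MT-ATP8 encode 2 subunits of complex V (ATP synthase) and are likewise carried by a joint mRNA. MT-ATP6 had 2288 CPM in Huh7-NC against 2661 in Huh7-si, with a log2 fold change of 0.22 (0.20 to 0.23), and -0.0068 with TMM scaling. MT-ATP8 had 4653 and 7641 reads, or 204 and 346 CPM, a log2 fold change of 0.76 (0.71 to 0.82). In this pair and in that of MT-ND4L and MT-ND4, the shorter gene had the larger difference. MT-ATP6 also shares 1 base with MT-CO3, and there the shorter gene, MT-ATP6, had the smaller one. Of the reads of the pair, 8.17% were given to MT-ATP8 in Huh7-NC (7.95 to 8.40) and 11.5% in Huh7-si (11.3 to 11.7), against 23.3% of the summed length. As 1 gene, the pair had a log2 fold change of 0.27 (0.26 to 0.29).

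**Figure D2:**
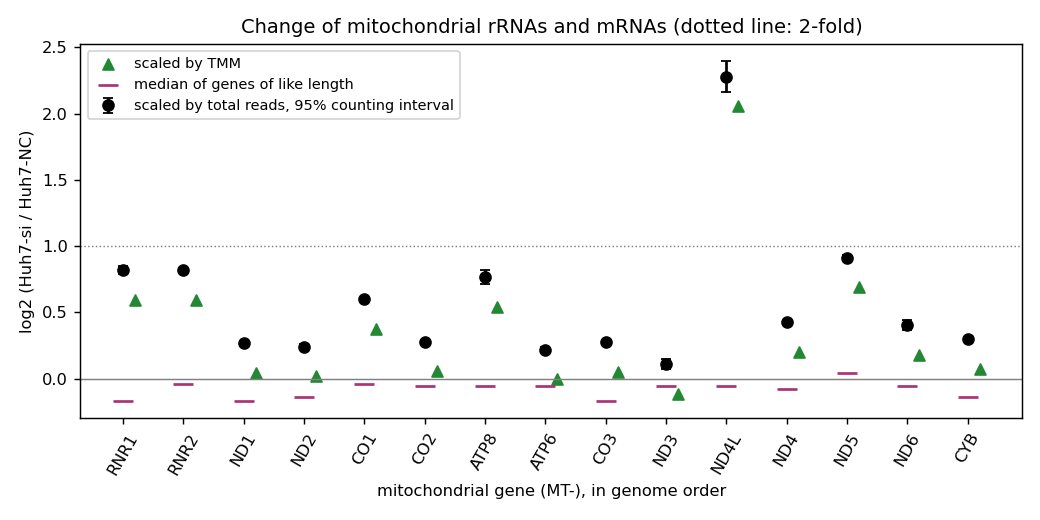
Log2 fold change of CPM from Huh7-NC to Huh7-si for each mitochondrial rRNA and mRNA in genome order (black points, scaled by total reads, with 95% exact counting intervals; triangles, scaled by TMM; dashes, the median of all genes of like length). MT-ND4L alone is above the dotted line of 2-fold, all black points are above 0 and above the dash of their length class, and the TMM values of MT-ATP6 and MT-ND3 are below 0.

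The 12S and 16S rRNAs differed between the libraries by nearly the same factor. MT-RNR1 (ENSG00000211459, chrM:648-1601, plus strand) had 13058 reads in Huh7-NC against 22273 in Huh7-si, or 571 and 1008 CPM, a log2 fold change of 0.82 (0.79 to 0.85). MT-RNR2 (ENSG00000210082, chrM:1671-3229, plus strand) had 44430 and 75637 reads, or 1944 and 3424 CPM, a log2 fold change of 0.82 (0.80 to 0.83). Their levels were 76.5% and 76.1% higher in Huh7-si, and neither reached the fold threshold. MT-RNR1 made up 22.7% of rRNA reads in Huh7-NC (22.4 to 23.1) against 22.7% in Huh7-si (22.5 to 23.0), and these intervals overlap. Per kb, MT-RNR2 had 2.08 times the CPM of MT-RNR1 in each library. Among the mRNAs, only MT-ND4L and MT-ND5 had an interval above those of the rRNAs.

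Because scaling between libraries moves all genes alike, the make-up of the mitochondrial mRNA pool was compared as each gene's share of its reads. The share of MT-CO1 was 28.5% in Huh7-NC (28.4 to 28.5) and 31.8% in Huh7-si (31.7 to 31.9). That of MT-ND5 was 5.0% (4.95 to 5.05) and 6.95% (6.91 to 7.0). MT-CO1, MT-ND5, MT-ATP8 and MT-ND4L made up a larger share in Huh7-si, 8 genes a smaller one, and for MT-ND6 the interval of the ratio included no change. These intervals cover counting error only, with 1 library per condition. At this depth MT-ND4 counts as smaller at a log2 ratio of only -0.014 (-0.024 to -0.0039). MT-ND5 and MT-CO1 are the longest of the mRNAs (1812 and 1542 bases). MT-ATP8 and MT-ND4L are the shortest (207 and 297 bases), and each overlaps a neighbour. MT-CO2 went from 12.6% to 11.3%, MT-CO3 from 11.6% to 10.4%, and MT-ND4 from 16.3% to 16.2% of the pool. Between these libraries the genes of the pool thus did not all differ by the same factor, and these ratios do not depend on the library scaling. They can still depend on other differences between single libraries, and whether they follow gene length was not tested.

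Change varied with gene length across the whole table, so each member was set beside genes of like length. Genes with 10 or more reads were split into 20 classes of length. On the log2 scale, the class of the shortest genes (62 to 699 bases) had a median change of -0.05 and that of the longest 0.67. The mRNAs, at 207 to 1812 bases, fell into classes whose medians lay between -0.17 and 0.04, and all 13 were above the median of their class. Less that median, MT-ND3 stood at 0.16, MT-CYB at 0.44, MT-CO1 at 0.64 and MT-ND5 at 0.87, with a median of 0.45 over the 13. The 100 nuclear genes with the most reads stood at a median of -0.38, and 17 of them were above 0. Gene length and fold change had a Spearman's rho of 0.72 over the 11 mRNAs other than MT-ATP8 and MT-ND4L, which were set aside after their values were seen, and of 0.11 over all 13. This is a description across genes that share both libraries, and genes are not replicates.

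The order of the mRNAs by level depended on the unit. By CPM per kb, MT-CO1 came first in Huh7-NC with 6601, hardly above MT-CO2 with 6587, and MT-ND4L came last with 105. In Huh7-si, MT-CO1 had 9996, MT-CO2 had 7986 and MT-ND4L had 508 CPM per kb. MT-CO1 and MT-CO2, near-equal in Huh7-NC, were thus apart in Huh7-si. By the authors' TPM, MT-ATP8 came first in both libraries, with 13177 and 20937, ahead of MT-CO2 with 12040 and 16207. MT-ATP8 is the shortest of the 13 (207 bases) and was 11th by CPM per kb in Huh7-NC. One TPM stood for 1.71 reads per kb in MT-ATP8, 4.50 in MT-ND4L, 6.07 in MT-ND3 and 17.9 in MT-ND4 in Huh7-NC, so TPM gave short genes more weight per read than their length alone would. By TPM, mitochondrial genes made up 7.51% of the total in Huh7-NC and 11.2% in Huh7-si.

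**Figure D3:**
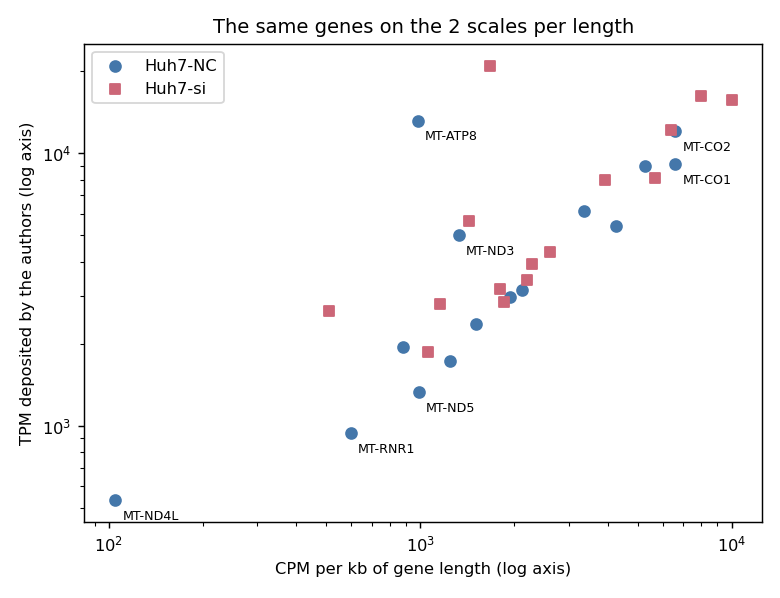
Deposited TPM against CPM per kb for the 2 rRNAs and 13 mRNAs, both on log axes (circles Huh7-NC, squares Huh7-si). MT-ATP8 lies farthest above the band of the longer genes, at 13177 TPM for 984 CPM per kb in Huh7-NC. The short genes MT-ND4L (532 TPM for 105 CPM per kb) and MT-ND3 (5007 for 1330) also lie above it in Huh7-NC. MT-CO1 lies in the band, at 9145 TPM for 6601 CPM per kb.

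Mitochondrial tRNAs, at 59 to 75 bases, were hardly captured. Of the 22 tRNA genes, 14 had reads in a library and 8 had none, which allows up to 3 reads each, or 0.131 CPM (Huh7-NC) and 0.136 CPM (Huh7-si). The TPM columns list all 22 at 0, also those with reads, so TPM gives no level for them. Reads lay mostly on the genes of the minus strand, opposite to most mRNAs. The 8 minus-strand tRNA genes held 177 reads in Huh7-NC against 275 in Huh7-si, and the 14 plus-strand genes held 5 and 25. At most 9 reads fell on any plus-strand tRNA gene in a library. Reads from precursors or from the other strand cannot be told apart from mature tRNA.

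MT-TA, the tRNA for alanine, had the most reads of the tRNAs, with 89 in Huh7-NC against 137 in Huh7-si and a log2 fold change of 0.67 (0.28 to 1.07). MT-TN, the tRNA for asparagine, rose from 11 to 31 reads (log2 fold change 1.54, 0.51 to 2.68, two-sided exact binomial p = 0.0017 on the reads of the 2 libraries). MT-TQ, the tRNA for glutamine, had 37 and 54 reads (0.59, -0.04 to 1.24). The interval of MT-TA lay above 0 and that of MT-TQ included it. A stretch of 30 bases around the anticodon is shown for these 3 because they are the tRNAs with the most reads in Huh7-si. The anticodon is in capitals, and the stretches lie on the minus strand in GENCODE release 29 (GRCh38).
MT-TA (chrM:5609-5638): aaagtggctgattTGCgttcagttgatgca
MT-TN (chrM:5680-5709): agggtgcttagctGTTaactaagtgtttgt
MT-TQ (chrM:4351-4380): ggcacggagaattTTGgattctcagggatg
The other tRNAs with at least 10 reads in a library were MT-TS1 (21 and 26 reads), MT-TY (8 and 16) and MT-TE (11 and 9), and each of their intervals included 0. MT-TF, the tRNA for phenylalanine, was named for passing the call and not by the rule for naming genes, with 1 read in Huh7-NC against 7 in Huh7-si. Its log2 fold change of 2.86 had an interval of -0.10 to 8.35, which included 0, and its two-sided exact binomial p was 0.036.

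**Figure D4:**
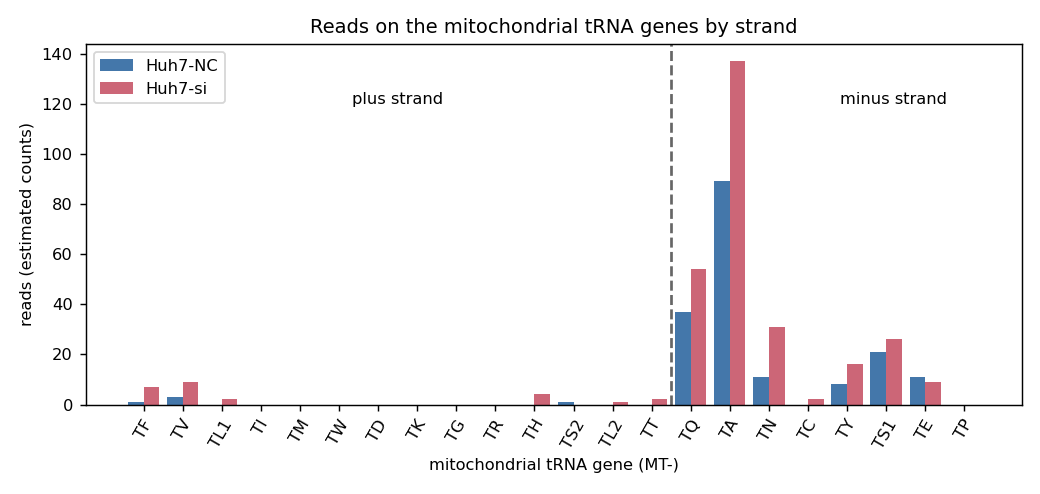
Reads (rounded estimated counts) on each mitochondrial tRNA gene in Huh7-NC and Huh7-si, with the 14 plus-strand genes left and the 8 minus-strand genes right of the dashed line, each in genome order. The bars of MT-TA reach 89 and 137 reads, and no plus-strand bar exceeds 9.

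Nuclear DNA holds many copies of mitochondrial genes, and near-identical copies can draw reads from the true gene. The table lists 415 such copies by symbol, of which 41 had reads. Together they held 7988 reads in Huh7-NC against 9606 in Huh7-si, equal to 0.913% and 0.822% of the reads on the mitochondrial genes. The 5 copies with the most reads held 96.5% and 96.2% of these. MTATP6P1, a copy of MT-ATP6 of the same length, had 5814 and 6836 reads, which equals 11.1% and 11.6% of the reads of MT-ATP6. MTND1P23 had 976 and 1059 reads, MTCYBP4 had 410 and 598, MTRNR2L1 had 248 and 395, and MTCO1P12 had 263 and 350 reads. The log2 fold changes of these 5 ran from 0.17 (MTND1P23) to 0.72 (MTRNR2L1), or from -0.06 to 0.50 with TMM scaling. With the reads of all copies added to their mitochondrial genes, the median of the 13 mRNAs stayed at 0.30.

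Respiratory complexes mix subunits from both genomes, so the mitochondrial mRNAs were set beside 75 nuclear genes for subunits of the same complexes. Of the 75, 0 were called in either direction (0 higher and 2 lower with TMM scaling), and 71 had an interval below 0 and 0 above it. Over all genes with reads, 10.4% were called higher and 1.02% lower (6.91% and 2.16% with TMM scaling). An interval above 0 was found for 28.9% of all genes and one below 0 for 13.8%. Among genes with at least 1000 reads these shares were 44.5% and 35.8%. The 100 nuclear genes with the most reads also stood low, at a median log2 fold change of -0.38 with total reads, and 17 of them were above 0. A fall was thus not particular to the respiratory subunits. Over the 75, the median log2 fold change was -0.48 with total reads, -0.71 with TMM and -0.42 against similar gene lengths. The lowest was NDUFV2, from 3936 to 2018 reads (-0.91, -0.99 to -0.84), a gene named after its value was seen. In complex IV, the summed reads of 3 mitochondrial genes went from 430215 to 572011 (0.46, 0.45 to 0.47) and those of 11 nuclear genes from 42580 to 30249 (-0.44, -0.47 to -0.42). In complex I the summed changes were 0.46 for 7 mitochondrial and -0.43 for 37 nuclear genes, in complex III 0.30 and -0.42, and in complex V 0.27 and -0.51. The difference between both genomes, which no scaling between libraries alters, was 0.89, 0.72, 0.90 and 0.78 on the log2 scale for complexes I, III, IV and V. Every mitochondrial mRNA lay above every nuclear subunit of this list.

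**Figure D5:**
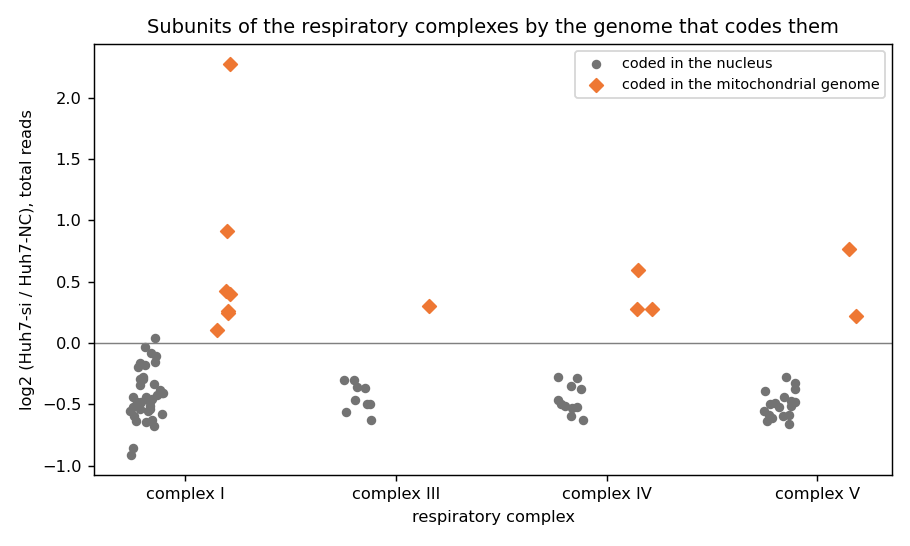
Log2 fold change of CPM from Huh7-NC to Huh7-si, scaled by total reads, for each subunit of complexes I, III, IV and V (grey points, 75 nuclear genes; diamonds, 13 mitochondrial genes; points are spread sideways to be seen). In each complex the diamonds lie above 0 and the grey points lie below them.

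Of 64 nuclear genes with reads that make, process or regulate mitochondrial RNA, 1 was called higher and 0 lower, 20 had an interval above 0 and 23 below it. Over all genes with reads, 10.4% were called higher, 1.02% lower, 28.9% had an interval above 0 and 13.8% below it. Among genes with at least 1000 reads, as many of the 64 had, 44.5% had an interval above 0 and 35.8% below it. The median of the 64 on the log2 scale was 0.01 (-0.22 with TMM scaling and -0.23 against similar gene lengths). In transcription, POLRMT (3750 and 3664 reads) had a log2 fold change of 0.02 (-0.05 to 0.08), but -0.21 with TMM scaling and -0.24 against similar gene lengths. TFAM, which packs mitochondrial DNA and opens its promoters, had 1673 and 1273 reads (-0.35, -0.45 to -0.24). TFB2M, the partner of POLRMT in initiation, had -0.21 (-0.38 to -0.05), and the elongation factor TEFM had 0.09 (-0.22 to 0.41). With TMM scaling TFAM had -0.57, TFB2M -0.44 and TEFM -0.13. Against similar gene lengths they had -0.76, -0.26 and 0.17. Of all 16 genes of the transcription and replication list, 3 had an interval above 0 and 5 below it with total reads. In RNA processing and stability, LRPPRC, which protects mitochondrial mRNAs, had 3288 and 3880 reads (0.29, 0.22 to 0.36), and its partner SLIRP had 959 and 580 reads (-0.68, -0.83 to -0.53). With TMM scaling they had 0.06 and -0.90, and against similar gene lengths -0.13 and -0.51. LRPPRC thus lay above 0 with total reads and with TMM scaling, but below 0 against similar gene lengths. ELAC2, which cuts the 3′ ends of tRNAs, had -0.18 (-0.25 to -0.11), the poly(A) polymerase MTPAP had 0.26 (0.10 to 0.42), and the nuclease PNPT1 had 0.10 (0.02 to 0.18). With TMM scaling ELAC2 had -0.40, MTPAP 0.03 and PNPT1 -0.12, and against similar gene lengths -0.43, -0.16 and -0.12.

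PPARGC1A was the only one of the 64 to be called. It encodes PGC-1α, a coactivator that promotes mitochondrial biogenesis, and it rose from 46 to 136 reads (log2 fold change 1.61, 1.12 to 2.13, two-sided exact binomial p = 3.0e-12 on the reads of the 2 libraries). With TMM scaling it had 1.39, and by the TPM columns 0.96, under the threshold. Its level stayed low, at 2.01 CPM in Huh7-NC against 6.16 in Huh7-si. By list, 0 of 16 transcription and replication genes, 0 of 22 processing genes, 1 of 7 biogenesis regulators and 0 of 20 genes for rRNA and tRNA modification were called, TFB1M being in 2 lists. Their median log2 fold changes were -0.10, 0.07, 0.42 and -0.04, and -0.33, -0.15, 0.19 and -0.27 with TMM scaling. Against similar gene lengths these medians were -0.19, -0.20, 0.003 and -0.27.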

How the data were processed

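RNA-seq of Huh7-NC and Huh7-si, 1 library each, was analyzed from 1 deposited table. The authors deposited estimated counts per gene, not scaled between libraries, and TPM values, which they scaled per length and library. The submitters' processing notes name TopHat2 2.0.12, Bowtie2 2.0.6 and GRCh37; the counting tool and strandedness are not given in the sources used here. The table also holds the authors' fold changes, p-values and calls, which were not used. Members were the genes whose symbol starts with MT-; the members, gene lists and tests were chosen with earlier results of these data known. Estimated counts were rounded and each gene of the whole table was compared by an exact binomial test against total reads. Genes named in the text were all mitochondrial mRNAs and rRNAs, tRNAs with at least 10 reads in a library, the 5 nuclear copies with the most reads, pathway genes past the call, 10 fixed pathway genes and BRF2. Alternatives were other scalings (TMM and upper quartile in edgeR, median of ratios in DESeq2, totals without mitochondrial genes or without the 100 genes with the most reads), a pseudocount of 0.5 reads, a fold of 1.5, adjustment by Benjamini-Hochberg, an exact test in edgeR under assumed coefficients of variation of 0.1 and 0.4, a filter of 10 reads, the TPM columns, added copies and genes of like length. The scripts were tested on simulated data. Where no read was counted, the limit used was 3 reads. The software was R 4.3.3 (DESeq2 1.42.0, edgeR 4.0.16) and Python 3.11.15 (matplotlib 3.10.9, SciPy 1.17.1, pandas 2.3.3, NumPy 2.4.6). Results of some single genes are not reported here.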

Additional observations from a re-analysis of the deposited data

How the results depend on the processing

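No paired analysis was possible because each condition has 1 library. Of the mitochondrial genes, 3 were called higher, against 9 at a fold of 1.5 and 1 (MT-ND4L) when edgeR assumed a coefficient of variation of 0.4; the other alternatives run gave 2 or 3. With each overlapping pair counted as 1 gene, chosen after seeing the data, MT-TN and MT-TF were called and the MT-ND4L pair, at 0.44, was not. No mitochondrial gene was called lower under any alternative run. The mRNA median of 0.30 on the log2 scale stayed above 0 throughout. Across scalings it was 0.075 (TMM), 0.092 (median of ratios), 0.11 (upper quartile), 0.32 (totals without mitochondrial genes and their copies) and 0.27 (totals without the 100 genes with the most reads). It was 0.45 against similar gene lengths, 0.47 from TPM and 0.28 with the pairs joined. MT-ATP6 was at -0.0068 under TMM, and MT-ND3 at -0.12 under TMM, -0.10 under median of ratios and -0.079 under the upper quartile. Mitochondrial genes took 7.51% and 11.2% of TPM in Huh7-NC and Huh7-si, and 3.86% and 5.33% of reads once nuclear copies were added. BRF2 was called lower also under TMM (-1.99) and median of ratios (-1.97). A shift in scaling moves all genes alike by construction, and the cause of the other differences was not tested.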
